A study of Rattus norvegicus with 18 samples.

Results

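The interleukin-6 type cytokines and their receptor chains were followed in the proximal stump of the cut sciatic nerve of the rat, the part that stays joined to the spinal cord, during the first hours after transection. The genes were chosen by name, with earlier results of these data known. They are the 5 ligands Il6, Lif, Osm, Clcf1 and Cntf and the 4 receptor chains Il6st, Il6ra, Lifr and Osmr. All 9 were found on the array, with 10 probes among 41012, and all 9 passed the filter on dim signal that left 27202 of 35279 gene names. RNA came from adult male Sprague-Dawley rats of 180 to 220 g, in which 1 cm of the left nerve was resected, and 0.5 cm of the proximal nerve was collected at once (0 h) or after 0.5, 1, 3, 6 or 9 h. Each of the 6 time-points was measured on 3 Agilent arrays of 1 colour, 18 in all, where a brighter spot means more of the transcript bound by its probe. No sham-operated group was analysed, so 0 h is the only base, and the effect of surgery alone and of the cut nerve cannot be told apart. Whether 1 rat or a pool of rats went on an array is not stated, so that P-values measure the spread between arrays, which may be in part technical.

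These cytokines share gp130, the product of Il6st, as the chain that carries the signal into the cell. Interleukin-6 first binds the chain encoded by Il6ra, leukaemia inhibitory factor (LIF) pairs gp130 with the LIF receptor, oncostatin M can pair it with its own receptor encoded by Osmr, and ciliary neurotrophic factor (CNTF) and cardiotrophin-like cytokine factor 1 act through gp130, the LIF receptor and a further chain, the CNTF receptor. The bound receptors activate JAK kinases and the transcription factor STAT3, and SOCS3 is induced as a brake on the same pathway. In peripheral nerve, CNTF is known as a product stored in myelinating Schwann cells that lacks a classical secretion signal, while LIF and interleukin-6 are known as factors induced by nerve injury.

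Levels are given below as log2 processed signal relative to the 75th percentile of the array, so that a level of 0 lies at that percentile and a difference of 1 is a 2-fold difference. A level of one gene cannot be set against that of another, because each probe has its own brightness. A gene was called where limma's moderated test gave P below 0.01 before adjustment and below 0.05 after the Benjamini-Hochberg method, applied over all 32115 tested probes. The share of spots well above background ran from 65.9% to 93.5% over the arrays, and no spot was saturated. Scanning took 3 days. The 6 arrays of 0 h and 0.5 h belonged to the first day, the arrays of 1 h, 3 h and 6 h with 2 of 9 h to the second, and 1 array of 9 h to the third, so that for 1 h and later the change against 0 h and the scan day cannot be told apart. Comparisons among the 11 arrays of the second day, with 1 h as the base, are therefore given beside the changes against 0 h. Each of the 9 slides held arrays of 1 time-point only, so that slide and time cannot be told apart, within a scan day as well. With slide as a random block, the only call against 0 h to change among the 9 genes was that of Lifr at 9 h, which was gained (adjusted P = 0.032). The correlation within slides was estimated at -0.013, so this fit was close to the main one. It cannot separate slide from time. The 13 measured Schwann cell markers were above background on all 18 arrays. Skeletal muscle markers varied widely, with a summed linear level (in multiples of an array's 75th percentile) of 1771 on replicate 1 of 0 h against 125 and 174 on the other arrays of 0 h, and from 2.95 to 503 on the later arrays. None of the 10 muscle markers was called at any time by limma, and at an unadjusted P-value under 0.05 only 1 was lower, at 1 h. In such bulk tissue fewer cells of a type and less RNA per cell cannot be told apart.

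Of the 9 genes, 7 were called over the time course in the F-test, against 34.6% of all genes tested. As the genes were chosen with earlier results known, this count and those below are a description. Il6, Clcf1 and Osmr moved most, Osm, Il6st and Il6ra moved less, Lifr changed little, Lif was not called in this test although it was called at single time-points, and Cntf was not called anywhere. Against 0 h, 1 gene was higher at 0.5 h, where 4.28% of all genes were. At 1 h there were 2 (3.59%), by 3 h 5 (7.15%), by 6 h again 5 (12.0%) and by 9 h 7 (15.8%). No gene of the 9 was called lower than 0 h at any time, where the shares of all genes were 1.72%, 2.04%, 6.83%, 13.0% and 15.4% in the same order. At an unadjusted P-value under 0.05 in limma's test, 1 of the 9, Lifr, was lower at 6 h and 9 h. With normexp background correction, which starts from the raw spot signal and adds a constant, only 4 of the 9 (Il6, Clcf1, Il6st and Osmr) were called over the time course, and 1, 1, 3, 3 and 4 were higher than 0 h in order of time. Shares of all genes were not computed under normexp, so these counts cannot be set against the shares above.

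**Figure D1:**
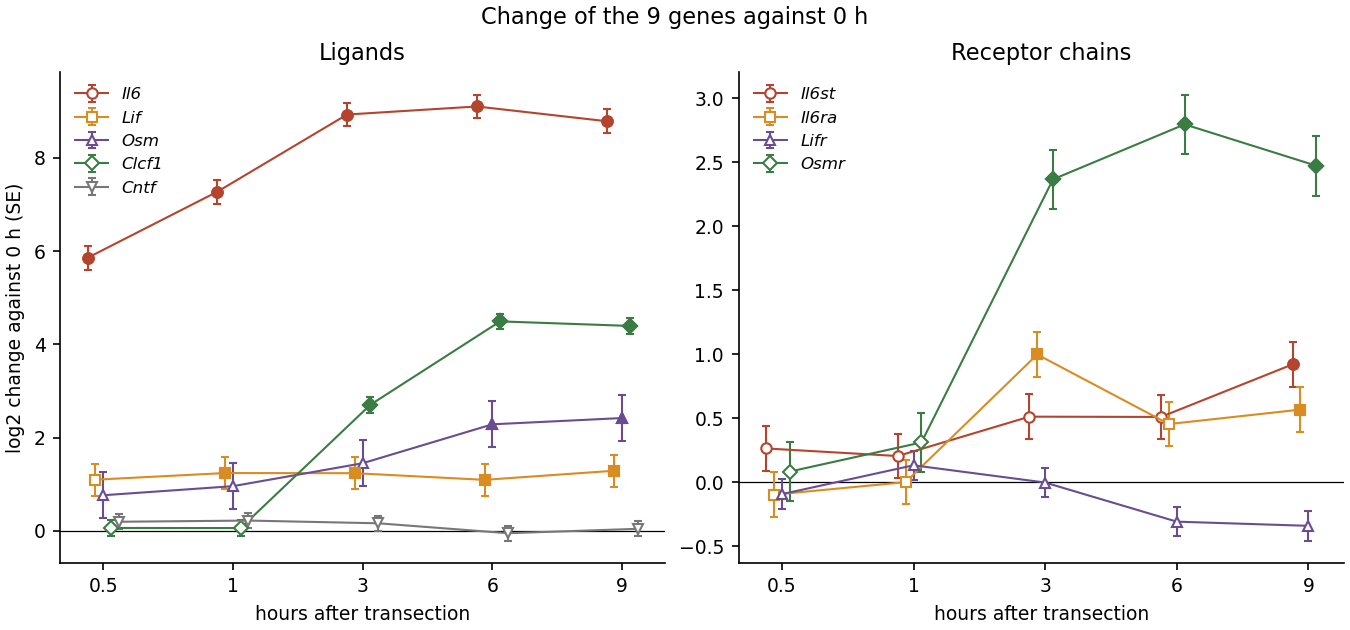
Change of each ligand (left) and receptor chain (right) against 0 h, as the difference of mean log2 signal with its standard error from limma (vertical axis), at each time after transection (horizontal axis, equally spaced). Filled symbols are called and open ones are not, and the vertical scales of the panels differ. Il6 stands highest at every time, but its level at 0 h was not well above background, so its plotted changes are no bound. Clcf1 and Osmr left the base at 3 h.

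Il6, which encodes interleukin-6, was the earliest of the 9 genes to be called. Its probe of 60 bases lies on chromosome 4 of the rn4 build, between 457279 and 458563 on the minus strand. This stretch of 1285 bases is longer than the probe, so the probe joins at least a pair of exons, and its first bases are shown because every value of the gene rests on it.
Il6 probe: ccctagttcatatcttcaaacaagagataa
At 0 h the level was -8.81, -8.55 and -8.42 on the 3 arrays, not well above background on any. It was -2.69, -2.92 and -2.59 at 0.5 h and -1.96, -0.69 and -1.31 at 1 h. The arrays of the first 3 time-points thus did not overlap. The level then lay between -0.02 and 0.58 on all 9 arrays of 3 h, 6 h and 9 h, whose means of 0.33, 0.51 and 0.19 followed no order beyond their spread.

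Measured against the lowest signal that still lay above background on the arrays of 0 h, Il6 was at least 13.6-fold higher at 0.5 h (adjusted P = 2.0e-08), at least 36.4-fold at 1 h (1.0e-09), at least 115-fold at 3 h (1.8e-10), at least 129-fold at 6 h (1.4e-10) and at least 104-fold at 9 h (7.5e-11). These P-values belong to the fitted changes from the measured signal of 0 h, not to the bounds, and the bounds hold for the processed signal. The first of these contrasts, whose 6 arrays share a scan day, was also called when they were fitted alone (adjusted P = 2.8e-04, where 3.69% of all genes were called in either direction). On the second scan day Il6 was higher than at 1 h by 1.66 ± 0.28 (SE) at 3 h (adjusted P = 0.012), 1.83 ± 0.28 at 6 h (0.0033) and 1.34 ± 0.31 at 9 h (0.022, 2 arrays). Normexp correction kept the gene called at all 5 times but gave smaller changes, from 2.08 at 0.5 h to 4.98 at 6 h on the log2 scale, which are folds below these bounds at each time. The probe is printed in 10 spots on each array, and the SD of their log2 signals was 0.06 in the median array but 0.30 in the median array of 0 h.

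The 250 bases before the start of Il6, from RefSeq on GRCr8, are shown because this gene was called first. They lie at chr4:5894576-5894825 on the minus strand, and the capitals mark the only match to GGANNTTCC, a part of the motif bound by NF-kB, the factor known to drive inflammatory genes.
Il6 promoter: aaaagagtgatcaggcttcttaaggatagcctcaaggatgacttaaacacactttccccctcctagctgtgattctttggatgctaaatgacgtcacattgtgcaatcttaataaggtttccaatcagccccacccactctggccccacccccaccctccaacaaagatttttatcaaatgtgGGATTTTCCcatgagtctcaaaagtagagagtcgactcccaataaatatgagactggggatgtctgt
The match begins 67 bases before the start, and 3.36% of the 33469 promoters of the table hold these letters on either strand in the same window. Neither TGANTCA, the letters of AP-1, nor TTCNNNGAA, those of STAT factors, matched in this window, where 6.34% and 7.67% of all promoters hold them.

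Neutrophil markers rose alongside. Their summed level lay between 0.586 and 0.943 in nerves of 0 h, between 2.26 and 4.75 in those of 0.5 h, between 7.65 and 22.5 by 3 h, and between 17.5 and 21.1 in the last group, and 8 of the 10 tested of 12 markers were called higher at 9 h, when 15.8% of all genes were called higher and 15.4% lower. At 0 h, Mmp8, Elane, Ngp and Fpr1 were not well above background on any array. The summed level of 12 macrophage markers changed less, from between 199 and 233 at 0 h to between 244 and 273 at 9 h, where 3 were called higher and 1 lower. Over the same interval the summed level of the 13 Schwann cell markers went from between 856 and 1019 to between 672 and 768, with 5 called lower and 1 higher. The 8 fibroblast markers went from between 1319 and 1402 to between 914 and 968, and the 8 endothelial markers from between 54.9 and 59.5 to between 41.1 and 42.7, so that the arrays of 0 h and 9 h did not overlap for these 3 summed levels. A sum is set mostly by the brightest probes, and the counts at 9 h were 5 of 8 lower for fibroblasts, and 2 of 8 lower (Kdr and Cldn5) and 1 higher (Flt1) for endothelium. The part of any of these cells in the rises of Il6, Osm, Clcf1, Osmr and Il6st was not tested.

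Clcf1, whose product acts through the same receptor as CNTF, was unlike Il6 in that it had not moved at 1 h. It is measured by 2 probes on chromosome 1 of rn4, at 206806002 to 206806061 (the brighter, reported here) and at 206804976 to 206805035, both on the plus strand. Whether either lies in coding or untranslated sequence was not determined here. They are shown since both bear on the gene with the largest rise from 1 h on among the 9.
Clcf1 reported probe: caaaagccatgttgagcattaagaccttgc
Clcf1 second probe: cacggtcaacttggaagtgtggcgaagcct
On the reported probe the 9 arrays of 0 h, 0.5 h and 1 h lay between -1.08 and -0.76. The 3 h arrays read 1.25, 1.82 and 1.98, the 6 h arrays 3.59, 3.44 and 3.39, and the 9 h arrays 3.45, 3.09 and 3.59. No array of 3 h overlapped an earlier array or a later one, whereas 6 h and 9 h overlapped.

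The change of Clcf1 against 0 h was 0.06 ± 0.17 (SE) at both 0.5 h and 1 h, then 2.71 ± 0.17 at 3 h (6.53-fold, adjusted P = 4.7e-07), 4.49 ± 0.17 at 6 h (22.5-fold, 9.3e-10) and 4.40 ± 0.17 at 9 h (21.1-fold, 1.4e-09). On the second scan day the rise over 1 h was 2.64 ± 0.19 by 3 h, 4.43 ± 0.19 by 6 h and 4.23 ± 0.21 by 9 h. The second probe, not well above background on any array of 0.5 h or 1 h, rose by 2.19 at 3 h, 3.99 at 6 h and 4.22 at 9 h, and its levels followed those of the reported probe with r = 0.985 over the 18 arrays.

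Osm encodes oncostatin M, a cytokine known from activated macrophages and neutrophils. Its probe on chromosome 14 (84859737 to 84859796, rn4, plus strand) was dim throughout, and the count of arrays on which it lay well above background was 3 at 0 h, 0 at 0.5 h and 1 at 1 h, then 3 at each later time. The levels at 0 h were -6.53, -5.97 and -6.07, below all arrays of the later times. The arrays of 0.5 h and 1 h lay between -5.88 and -4.35. The 3 h arrays read -5.04, -5.27 and -3.90, the 6 h arrays -3.39, -4.36 and -3.96, and the 9 h arrays -3.91, -4.65 and -2.75. The arrays of 3 h, 6 h and 9 h overlapped, with the widest spread at 9 h (SD 0.96).
Osm was called higher than 0 h at 6 h (2.29 ± 0.49, 4.88-fold, adjusted P = 0.0039) and 9 h (2.42 ± 0.49, 5.36-fold, 0.0021). The difference of 1.45 ± 0.49 for 3 h missed the call (adjusted P = 0.066). With normexp both calls were lost, at 0.85 (adjusted P = 0.61) and 0.95 (0.45). Within the second scan day the changes from 1 h, 1.33 ± 0.48 at 6 h and 0.95 ± 0.54 at 9 h, were not called (adjusted P = 0.081 and 0.28).

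Lif encodes leukaemia inhibitory factor, known as a signal from injured nerve to neurons and Schwann cells. Its probe lies on chromosome 14 at 84890560 to 84890619 (rn4, plus strand). The 3 arrays of 0 h read -4.96, -3.25 and -3.35, and the 15 later arrays lay between -2.90 and -2.17. All later arrays were thus above those of 0 h, but replicate 1 of 0 h stood far below the other arrays of its time-point. That array is also the one with the summed muscle level of 1771. Arrays of later times with much muscle, replicate 1 of 6 h (503) and replicate 2 of 3 h (360), had Lif at -2.63 on each. The part of muscle RNA in the low value was not tested.

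The fitted change of Lif was 1.1 ± 0.34 at 0.5 h, which was not called (adjusted P = 0.075). From 1 h on it was called each time, with 1.24, 1.24, 1.1 and 1.29 (adjusted P = 0.049, 0.027, 0.029 and 0.010), and of 29 alternatives 8, 25, 20 and 26 kept these calls in the same order. Without replicate 1 of 0 h the 5 changes became 0.54, 0.69, 0.68, 0.54 and 0.74 in order of time. Those at 3 h and 9 h were still called (adjusted P = 0.037 and 0.012), and those at 1 h and 6 h were not (0.073 and 0.057). In the F-test Lif had an adjusted P of 0.040 but missed the limit on the unadjusted P-value. With normexp none of the 4 calls remained (adjusted P from 0.056 to 0.44), though Lif still differed by 1.19 at 1 h and 1.44 at 3 h, beside smaller differences of 0.67 for 6 h and 0.82 for 9 h. Under normexp the median change of all probes was 0.31, 0.44, -0.035 and -0.057 at these 4 times, so the larger early differences are in part a general shift. From 1 h to 9 h no change was called within the second scan day, where the differences from 1 h ran from -0.15 to -0.0033 with standard errors of 0.15 to 0.17.

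**Figure D2:**
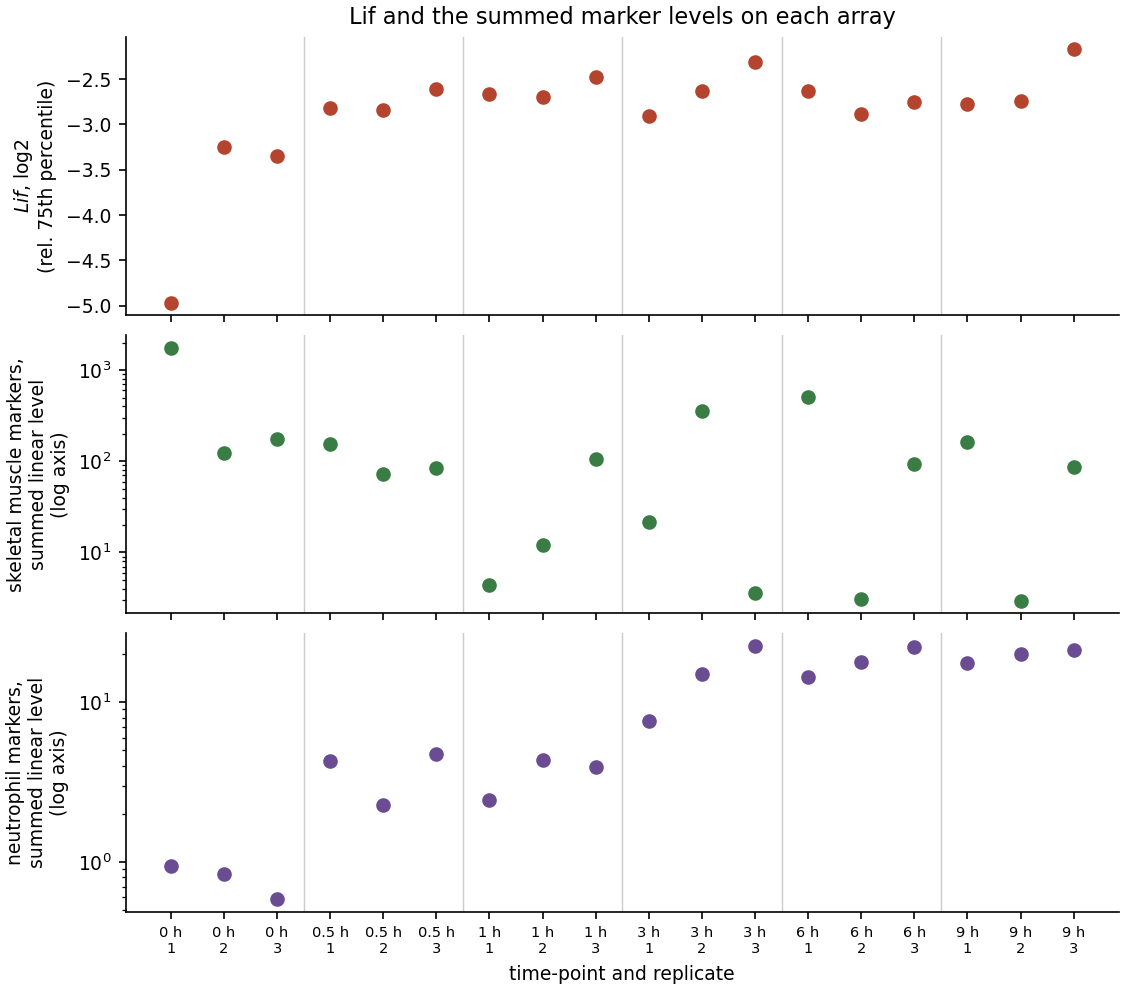
Level of Lif on each of the 18 arrays (top, log2 relative to the 75th percentile), above the summed linear level of 10 skeletal muscle markers (middle, log axis) and of 12 neutrophil markers (bottom, log axis), with time-point and replicate on the horizontal axis. Replicate 1 of 0 h holds both the lowest Lif level, -4.96, and the highest muscle level, 1771, while the neutrophil level is lowest at 0 h.

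Cntf, which encodes ciliary neurotrophic factor, was the only ligand with no call. Its probe lies on chromosome 1 at 215842670 to 215842729 (rn4, minus strand) and is printed in 10 spots. The 0 h arrays read 5.66, 5.77 and 6.21. The 9 arrays of 0.5 h, 1 h and 3 h lay between 5.84 and 6.26, the 6 h arrays read 5.72, 5.92 and 5.85 and the 9 h arrays 5.91, 6.18 and 5.69, and every time-point overlapped with 0 h. The change against 0 h ran from -0.05 at 6 h to 0.22 at 1 h, each with a standard error of 0.16 (adjusted P of the F-test 0.50). Changes larger than that error could also go uncalled with this number of arrays. For Il6st, a change of 0.51 ± 0.18 at 3 h was not called. The promoter of Cntf is shown as that of the ligand with no call. It lies at chr1:219314536-219314785 (GRCr8, minus strand), and the capitals mark its match to TGANTCA, the letters of AP-1, 72 bases before the start.
Cntf promoter: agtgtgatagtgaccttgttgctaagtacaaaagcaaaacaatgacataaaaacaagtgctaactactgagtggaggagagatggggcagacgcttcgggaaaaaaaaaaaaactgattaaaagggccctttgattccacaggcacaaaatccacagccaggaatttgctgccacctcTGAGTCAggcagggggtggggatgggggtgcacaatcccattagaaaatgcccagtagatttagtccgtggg
The AP-1 letters also stand before Osmr, below, and in the same window of 6.34% of all promoters. Whether they bear on any change was not tested.

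**Figure D3:**
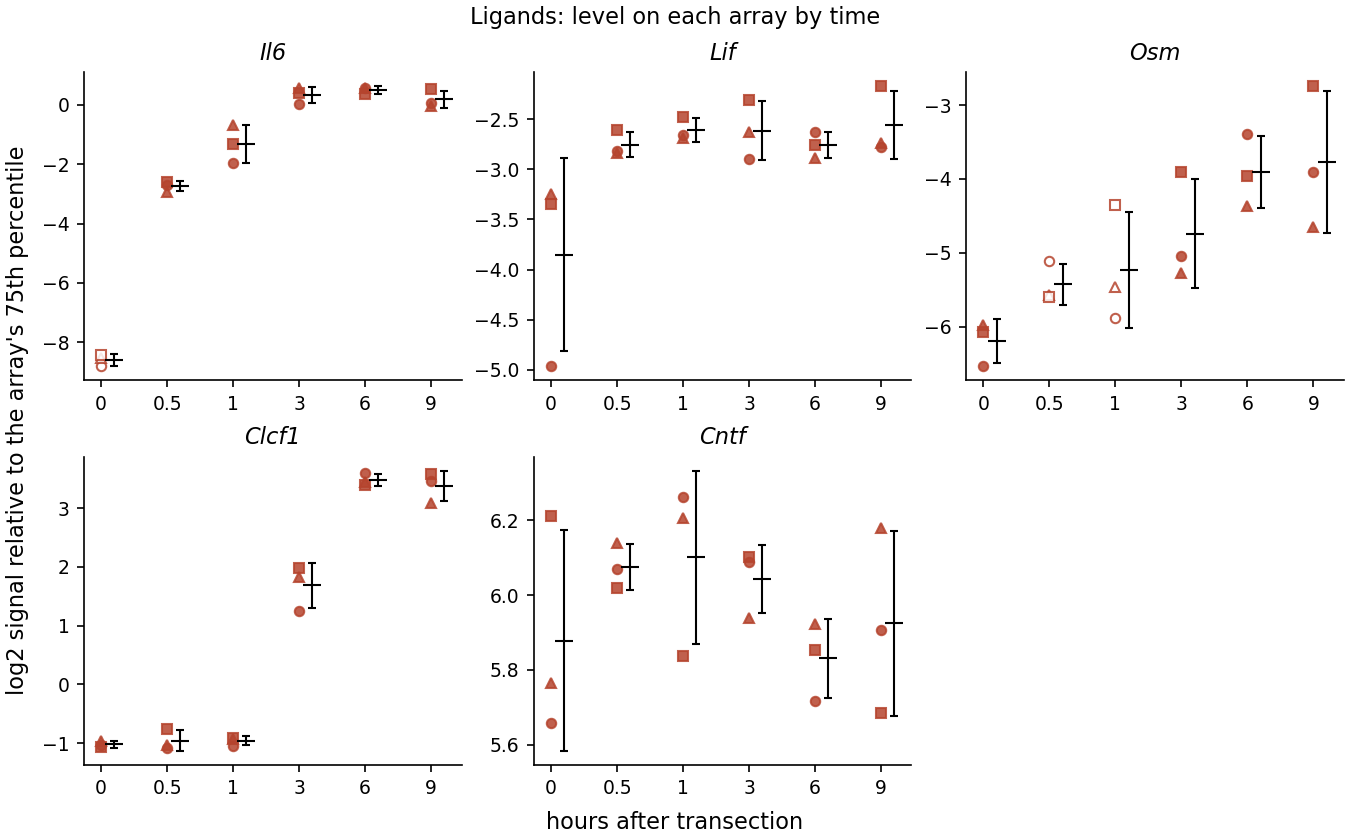
Level of the 5 ligands on each array (log2 signal relative to the 75th percentile, vertical axis, scaled per panel) at each time (horizontal axis, equally spaced). Circles, triangles and squares are replicates 1, 2 and 3, open where the probe was not well above background on all 3 arrays of the time-point, and bars are the mean and SD of the 3 arrays. Il6 rises by 0.5 h, Clcf1 at 3 h, and the spread of Lif at 0 h comes from replicate 1.

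Among the receptor chains, Osmr changed most. It encodes the oncostatin M receptor, and its probe runs from 56081199 to 56081943 on chromosome 2 (rn4, minus strand), a stretch of 745 bases for a probe of 60.
Osmr probe: gagcagcatcctatcactcataaaatccaa
The 9 arrays of 0 h, 0.5 h and 1 h read between -4.18 and -3.31. The 3 h arrays read -1.81, -1.19 and -1.28, the 6 h arrays -0.76, -0.87 and -1.35, and the 9 h arrays -1.32, -1.58 and -1.06. No array of 3 h or later overlapped an earlier one, and the 3 later time-points overlapped among themselves.
Osmr was higher than 0 h by 2.37 ± 0.23 at 3 h (5.16-fold, adjusted P = 2.7e-05), 2.80 ± 0.23 at 6 h (6.95-fold, 3.0e-06) and 2.47 ± 0.23 at 9 h (5.56-fold, 6.6e-06). On the second scan day it was higher than at 1 h by 2.06 ± 0.22, 2.49 ± 0.22 and 2.03 ± 0.25 at the same times, all called. Over the 18 arrays its level followed that of Clcf1 with r = 0.961, a description of arrays that share the time course.

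The promoter of Osmr is shown beside that of Il6 as the promoter of the receptor chain that rose most. It lies at chr2:57688562-57688811 (GRCr8, minus strand), and the capitals mark a match to the AP-1 letters 33 bases before the start.
Osmr promoter: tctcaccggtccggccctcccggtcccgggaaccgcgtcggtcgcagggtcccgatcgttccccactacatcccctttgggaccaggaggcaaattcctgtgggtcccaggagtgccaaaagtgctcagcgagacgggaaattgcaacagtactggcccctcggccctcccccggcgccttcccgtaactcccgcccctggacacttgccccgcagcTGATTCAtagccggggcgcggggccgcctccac
Of the 6 members with a promoter in the table (Il6ra under its current symbol Il6r), Il6, Cntf and Osmr held 1 match each to the letters searched, and Il6st, Il6ra and Lifr held none.

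Il6ra encodes the chain that binds interleukin-6 itself. Its probe on chromosome 2 (182078323 to 182078382, rn4, minus strand) read 0.46, 0.53 and -0.16 at 0 h and between -0.17 and 0.41 in the nerves of 0.5 h and 1 h. The 3 h arrays read 1.33, 1.2 and 1.30, the 6 h arrays 0.67, 0.70 and 0.83, and the 9 h arrays 0.76, 0.86 and 0.92. The highest level was at 3 h, whose arrays stood above those of all other times. The gene was called at 3 h (1.00 ± 0.17, adjusted P = 0.0019) and 9 h (0.57 ± 0.17, 0.021), while at 6 h the change of 0.46 was not called (0.066). On the second scan day all 3 later times were called above 1 h, with 1.00 ± 0.10 for 3 h, 0.45 ± 0.10 for 6 h and 0.53 ± 0.11 for 9 h. The 9 h call against 0 h was lost in 6 of 29 alternatives and that at 3 h with normexp (adjusted P = 0.053).

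Il6st, the gene of gp130, has its probe at 43833273 to 43833332 on chromosome 2 (rn4, plus strand). It read 1.71, 1.32 and 1.41 at 0 h, between 1.47 and 2.10 at 0.5 h and 1 h, and between 1.89 and 2.18 at 3 h and 6 h. The 9 h arrays read 2.49, 2.27 and 2.46, when all arrays stood above every earlier one. The rise of 0.92 ± 0.18 at 9 h was called (1.89-fold, adjusted P = 0.0014). At 3 h and 6 h the changes of 0.51 ± 0.18 were not called, although no array of these times overlapped 0 h. Within the second scan day the difference of 9 h from 1 h was 0.69 ± 0.19 (adjusted P = 0.043).

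Lifr encodes the LIF receptor and was the one member with lower levels at late times. Its probe on chromosome 2 (56477054 to 56477113, rn4, plus strand) read -1.99, -1.76 and -1.78 at 0 h and between -1.97 and -1.56 on the next 9 arrays. The 6 h arrays read -2.13, -2.17 and -2.17 and the 9 h arrays -2.17, -1.95 and -2.43. The arrays of 6 h lay below all of 0 h, and those of 9 h overlapped with it. Neither the difference of -0.31 ± 0.11 at 6 h (adjusted P = 0.063) nor that of -0.34 ± 0.11 at 9 h (0.034, with an unadjusted P-value of 0.0105) was called. The gene was called in the F-test (adjusted P = 0.021), a call that 15 of 28 alternatives lost. On the second scan day 6 h was lower than 1 h by -0.44 ± 0.11, and this was called (adjusted P = 0.019).

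**Figure D4:**
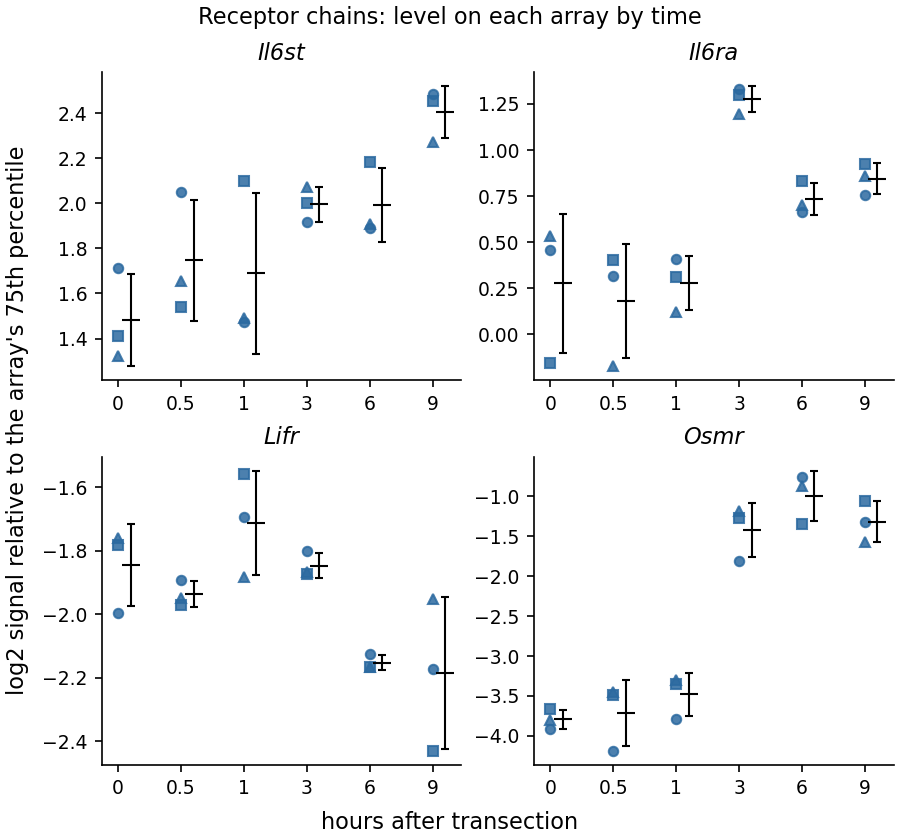
Level of the 4 receptor chains on each array (log2 signal relative to the 75th percentile, vertical axis, scaled per panel) at each time (horizontal axis, equally spaced), with circles, triangles and squares for replicates 1, 2 and 3 and bars for the mean and SD of the 3 arrays. Osmr is higher on all arrays from 3 h, Il6ra peaks at 3 h, Il6st is highest at 9 h, and the panel of Lifr covers a range of less than 1 on the log2 scale.

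Within the second scan day, 4 of the 9 genes (Il6, Clcf1, Il6ra and Osmr) were called in the F-test over 1 h to 9 h, against 19.1% of all genes. Against 1 h the counts were 4 at 3 h (7.04% of all genes), 5 at 6 h (21.6%) and 5 at 9 h (16.1%), the fifth being Lifr at 6 h and Il6st at 9 h. Osm and Lif were called only against 0 h. With normexp, 1 of the 9 genes was called in the F-test of that day, and 1, 2 and 1 against 1 h at the later times. The shares above are not from that fit.

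Of the other genes of the gp130 family, 9 of 11 were on the array and 8 passed the filter. Ebi3, a subunit shared by interleukin-27 and interleukin-35, was higher by 1.71 ± 0.31 at 3 h (adjusted P = 0.0025), 1.51 at 6 h and 1.38 at 9 h. Il11ra1, the receptor of interleukin-11, was called lower, by -0.45 at 3 h, -0.54 at 6 h and -0.54 at 9 h (SE 0.11 each). Il31ra (1.99 ± 0.59, adjusted P = 0.019) and Il27ra (1.24 ± 0.31, 0.0079) were called higher at 9 h, and Il27ra also at 1 h (1.23, 0.037). Neither was called in the F-test (adjusted P = 0.11 for Il31ra and 0.037 for Il27ra, the latter missing the limit on the unadjusted P-value). Cntfr, the chain that CNTF and the Clcf1 product share, was above background on 6 of 18 arrays and ranged in change from -0.09 to 0.56 (SE 0.57). Il11 was above background on 3 arrays and was not tested.

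Of 28 genes that relay or brake the signal, 27 were tested and 18 were called over the time course, where 34.6% of all genes were. In order of time, 4, 4, 9, 8 and 11 were called higher than 0 h and 1, 1, 1, 1 and 3 lower. The shares of all genes were 4.28%, 3.59%, 7.15%, 12.0% and 15.8% higher and 1.72%, 2.04%, 6.83%, 13.0% and 15.4% lower. Socs3, the feedback inhibitor of gp130, rose at the first time-point with Il6, by 3.09 ± 0.31 at 0.5 h (adjusted P = 1.2e-04) and 3.92 ± 0.31 at 1 h (1.0e-05), and was still higher by 3.51 at 9 h. Stat3 was higher by 0.46 ± 0.12 at 0.5 h (adjusted P = 0.038), was not called at 1 h (0.29), and was higher by 1.07 at 3 h, 1.49 at 6 h and 1.45 at 9 h. Socs1, another inhibitor of JAK kinases, was called at 3 h (1.85 ± 0.33) and 9 h (1.05). Ptpn2, a phosphatase that acts on JAK and STAT proteins, was higher by 1.30 ± 0.13 at 3 h and 1.62 at 9 h. Among the JAK kinase genes, Jak1 was called lower at 0.5 h and 1 h (by -0.43 each time), Jak2 was called higher from 3 h (0.85 ± 0.11, then 1.27 and 1.26), and Jak3 was called higher at all 5 times, by 0.65 to 1.08. The median change over the 27 was 0.0021 at 0.5 h and 0.39 at 9 h, beside 0.0024 and 0.01 over all genes. With normexp 9 of the 27 were called over the time course, a count with no share of all genes from the same fit beside it.

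A list of 30 genes known to respond to gp130 and STAT3, or to axotomy through them, was also followed. Many of these also respond to other signals. Of the 30, 29 were tested and 28 were called over the time course (34.6% of all genes). In order of time, 10, 14, 24, 23 and 25 were called higher, against the 4.28%, 3.59%, 7.15%, 12.0% and 15.8% of all genes. Their median change was 0.36, 0.91, 1.32, 1.45 and 1.57, beside medians of 0.00038 to 0.02 over all genes. Fos, Egr1 and Junb, transcription factors of the immediate early response, were highest at the first times. Fos was higher by 5.69 ± 0.33 at 0.5 h and by 2.55 at 9 h, Egr1 by 3.85 ± 0.28 and 0.98, and Junb by 3.25 ± 0.27 and 2.50. Mt2A, a metallothionein that binds metal ions, instead rose from 1.35 ± 0.19 at 0.5 h to 3.77 ± 0.19 at 3 h and 3.63 at 9 h. The genes called lower were A2m at 0.5 h and 1 h, Ccnd1 at 3 h and Vip at 9 h, and A2m, the acute phase protein alpha-2-macroglobulin, was called higher at 9 h (0.55). The list was made with earlier results of these data known, and in part for a known response to axotomy. Its count is therefore a description and no measure of gp130 signalling.

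**Figure D5:**
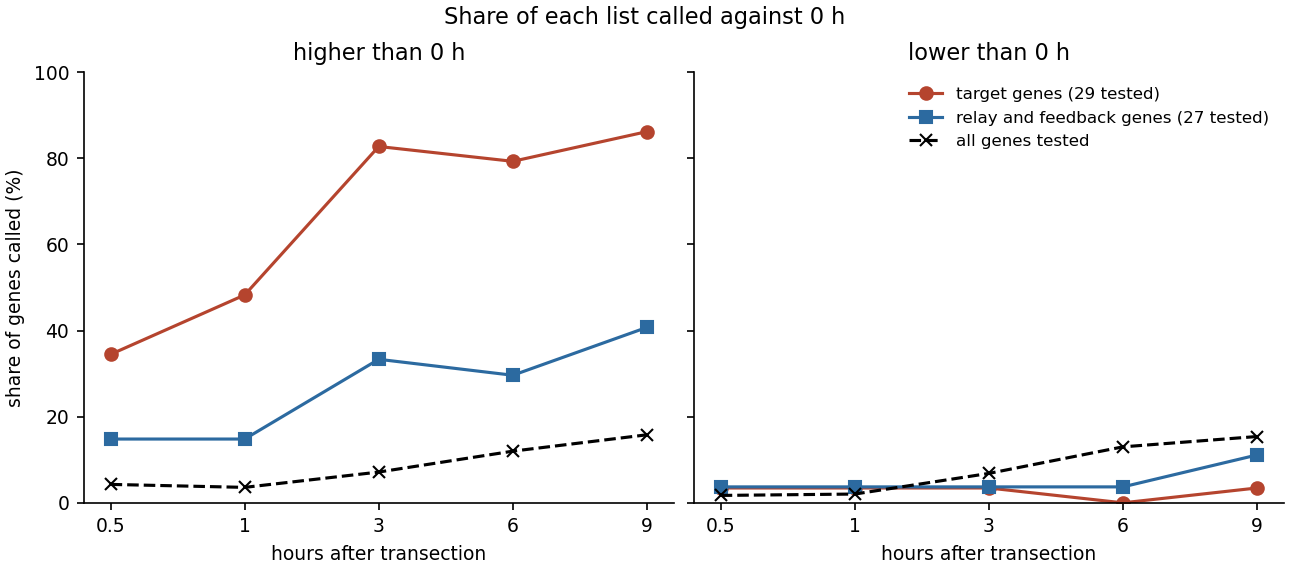
Share of the 29 tested target genes and of the 27 tested relay and feedback genes called higher (left) or lower (right) than 0 h at each time (horizontal axis, equally spaced), in percent of the genes tested, beside the share of all 27202 genes (dashed). The target genes reach 25 of 29 called higher at 9 h, when 15.8% of all genes were.

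By the level over the 18 arrays, among 13456 tested genes with a RefSeq symbol, Il6 was followed most closely by Ccl2, a chemokine that draws monocytes (r = 0.985), Dusp5, a phosphatase of MAP kinases (0.964), and Csta (0.962). Clcf1 was followed by Runx1, a transcription factor (0.990), Heatr1 (0.990) and Epcam (0.989), and Osmr by Ugdh (0.990), Bcl3 (0.986), which is also on the target list, and Ipo5 (0.983). Osm was followed by Nos2, the inducible nitric oxide synthase (0.935), S1pr4 (0.929) and Slc7a6 (0.914). Il6ra was followed by Cblb (0.945), Map3k6 (0.917) and Smim3 (0.898), and Il6st by Col7a1 (0.911), Tars1 (0.908) and Dus1l (0.906). For Lifr they were Dennd5a (0.958), Ccdc92 (0.952) and Gprc5b (0.949). The closest genes had lower correlations for Lif and Cntf, with Dnaaf2 (0.865), Prpmp5 (0.862) and Tcaf1 (0.844) for Lif and Serpine2 (0.858), Chchd6 (0.847) and Col9a3 (0.845) for Cntf. These correlations rest on arrays that share time and scan day and carry no test.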

How the data were processed

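RNA of proximal sciatic nerve was measured on 18 arrays, grouped by time from the sample titles. The authors deposited scanner output of Agilent Feature Extraction (version 10.5.1.1 in the file headers), whose processed signal is a linear intensity with background subtracted and no scaling between arrays. The series matrix, likewise deposited, has log2 values with 1 distribution for all arrays (median 7.75), which rank probes as the scanner output does. No gene was centred there, and direction is that of the signal. From the processed signal, control and outlier spots were left out, log2 values were taken relative to each array's 75th percentile, and replicate spots averaged. Tested were probes with over 0.5 of their spots well above background on all 3 arrays of a time-point. The brightest tested probe stood for a gene. Probes were named by accession (16336 of 41012) or symbol (21166 with a RefSeq symbol in all).

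The limma model (version 3.58.1, R 4.3.3) held all 6 time-points, with an F-test of 5 degrees of freedom and contrasts with 0 h. For a probe above background on no array of 0 h, a fold is given as a lower bound. Alternatives were normexp (offset 50), the deposited matrix, quantile normalization, centring on the median, other filters, thresholds and priors, array weights, a replicate block, slide as a random block, only the 6 arrays of a contrast, and each array left out. On simulated data with 200 of 31911 probes changed, comparing 6 h with 0 h recovered 85% of those changed 4-fold and 58% of those changed 2-fold. It also called 11 unchanged probes. The simulated noise was independent between arrays, and a far smaller share of probes changed than was called here at 6 h. These rates are thus a check of the fit and not its power in these data. The genes and lists were chosen with earlier results of these data known. Named from each list were up to 4 called genes with the largest change, with Socs3, Stat3, Cntfr and Il11 in any case, and Il11ra1, Jak1, Jak2, Jak3, A2m, Ccnd1, Vip, Kdr, Cldn5 and Flt1 were added after their values were seen. A gene of the other gp130 family list is not reported here. Promoters (GRCr8) came from RefSeq, and a planned description of the proteins was not run, as no protein sequences were used here. The number of arrays limits the precision. Python 3.11.15, numpy 2.4.6, pandas 2.3.3 and matplotlib 3.10.9 were used.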

Additional observations from a re-analysis of the deposited data

How the results depend on the processing

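Of 1545 values of single genes recomputed under the alternatives, 1416 kept their direction and their side of the threshold, 65 lost a call, 35 gained one and 29 changed sign, none of the last being called. Clcf1 and Osmr (3 h and later) and Il6st (9 h) were called against 0 h under every alternative run, and Il6 (all times) under every one that tested it, the filter on all 18 arrays being the exception. The count of 7 members in the F-test became 4 with normexp, 4 with a change of at least 2-fold required, 7 with a replicate block, and 5 to 8 with each array left out. The replicate numbers were not taken to pair the arrays, since not every pair of same-numbered arrays deviated together (correlations of -0.26 to 0.56, median 0.07, against a median of 0.0067 for other numbers). That 11 of 18 arrays correlated best with an array of their own number is a hint of pairing from the data, not from the design. With this replicate block the F-test gained Lif (adjusted P = 0.025) and lost Lifr (0.036, with an unadjusted P-value of 0.014), and Osm was gained at 3 h (0.038). The counts higher than 0 h were then 1, 2, 6, 5 and 7, no count moved by over 1.5 times, and no other call of a member changed. The count of 2 members higher at 1 h became 1 with a shift to the median, quantile normalization, the deposited matrix, normexp, no filter, the filter on all arrays or only the arrays of the contrast, by the loss of Lif or, with the filter on all arrays, of Il6, and was 1 to 2 with each array left out. Normexp gave 3 members higher at 3 h, 3 at 6 h and 4 at 9 h, and within the second scan day 1 in the F-test and 1, 2 and 1 at 3 h, 6 h and 9 h. It gave 9 relay genes in place of 18 (14 to 19 with each array left out) and 22 target genes in place of 28 (27 to 29). The filter on all 18 arrays, which drops Il6, gave 0 at 0.5 h, and array weights gave 2. At 9 h 1 member, Lifr, was called lower with the deposited matrix, a shift to the median, quantile normalization, the filter on all arrays, array weights, slide as a random block or the adjusted P-value alone, and at 6 h with array weights. With each array left out the counts lower were 0 to 1 at 6 h and 0 to 1 at 9 h, the counts higher were 4 to 7 at 3 h, 4 to 6 at 6 h and 5 to 7 at 9 h, and within the second scan day 4 to 5 in the F-test, 3 to 4 at 3 h, 4 to 8 at 6 h (8 without replicate 3 of 1 h) and 2 to 5 at 9 h (2 without either array of 9 h on that day). Shares of all genes were not computed under the alternatives, and the causes were not tested.

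The shift to the median moved the median of all probes against 0 h to between -0.16 and -0.09, and normexp to 0.31 at 1 h and 0.44 at 3 h. Signs turned under a shift to the median for Clcf1 (-0.094 at 0.5 h and -0.086 at 1 h), Cntf (-0.12 at 9 h), Il6ra (-0.15 at 1 h), Lifr (-0.014 at 1 h) and Osmr (-0.074 at 0.5 h). They turned under quantile normalization for Cntf (0.11 at 6 h) and Osmr (-0.15 at 0.5 h), in the deposited matrix for Cntf (0.11 at 6 h) and Osmr (-0.14 at 0.5 h), and with normexp for Cntf (-0.035 at 3 h) and Lifr (0.50 at 3 h). With each array left out the change of Clcf1 ran from -0.034 to 0.13 at 0.5 h, that of Cntf at 6 h from -0.16 to 0.12, Cntf at 9 h from -0.082 to 0.21, Il6ra at 0.5 h from -0.31 to 0.082, Il6ra at 1 h from -0.21 to 0.13, Lifr at 3 h from -0.076 to 0.042 and Osmr at 0.5 h from -0.047 to 0.32.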
